A study of Mus musculus with 15 samples.

Results

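The miR-10, miR-99/100 and miR-125 families of microRNAs (miRNAs) were examined in small RNA libraries of mouse pancreatic acini, the enzyme-secreting units of the exocrine pancreas. The members were chosen by name and are 9 of the 1915 mature miRNAs listed: the guide strands mmu-miR-10a-5p, mmu-miR-10b-5p, mmu-miR-99a-5p, mmu-miR-99b-5p, mmu-miR-100-5p, mmu-miR-125a-5p and mmu-miR-125b-5p, and the opposite strands mmu-miR-10a-3p and mmu-miR-125a-3p. The prefix mmu marks the mouse. Of the miRNAs listed, 867 had a count in any library and 351 passed a filter on low counts, among them all 9 members, which had counts in every library. The acini came from C57BL/6 mice aged 7 to 8 weeks and were sampled in 5 groups of 3 libraries each. Caerulein, a peptide agonist of the cholecystokinin receptor on acinar cells, was given at 100 nM, which the study's design calls pathological, or at 100 pM, which it calls physiological. TLC-S, the bile acid taurolithocholic acid sulphate, was given at 250 uM or 62.5 uM, and control acini received no drug. The question was which miRNAs differ in acini exposed to agents that are used to model acute pancreatitis. Libraries were made from pooled RNA of 3 acinar preparations. The labels do not say which preparations each library holds, so a p-value here compares groups only with how far these libraries scatter, part of which may be technical. How long the acini were exposed is not given in the sources used here.

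A miRNA pairs with messenger RNAs mainly through its seed, bases 2 to 8 from its 5′ end, and lowers their translation or stability. Members of a family that share a seed can bind overlapping sets of targets even where they come from different chromosomes. The miR-10 genes sit in the Hox clusters, and miR-10b represses HOXD10 in human breast cancer cells. In mammals, genes of the miR-99/100 and miR-125 families lie beside let-7 genes, and miR-125 is the relative of lin-4, a regulator of developmental timing in the worm Caenorhabditis elegans. In human cells miR-99 and miR-100 repress MTOR, a kinase that drives growth, and miR-125b represses the p53 messenger in human and zebrafish cells.

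The guide strands are shown first because their seeds define the families, and the 3p strands because they are the only opposite strands among the members. Sequences are from RefSeq (GRCm38.p6), which held all 9, and capitals mark the seed.
miR-99a-5p: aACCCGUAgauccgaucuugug
miR-100-5p: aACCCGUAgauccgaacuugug
miR-99b-5p: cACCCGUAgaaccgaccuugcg
miR-10a-5p: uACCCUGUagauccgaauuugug
miR-10b-5p: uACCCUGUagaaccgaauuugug
miR-125a-5p: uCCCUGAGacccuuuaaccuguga
miR-125b-5p: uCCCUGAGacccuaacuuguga
miR-10a-3p: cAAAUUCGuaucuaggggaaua
miR-125a-3p: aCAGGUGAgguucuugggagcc

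The 7 guides carry 3 seeds, ACCCGUA in 3 of them, ACCCUGU in 2 and CCCUGAG in 2. With positions counted from the 5′ end, miR-99a-5p and miR-100-5p differ by 1 base (U16A, miR-99a-5p first), and miR-10a-5p and miR-10b-5p also by 1 base (U12A, miR-10a-5p first). From miR-99a-5p to miR-99b-5p there are 4 differences (A1C, U11A, U16C and U21C). miR-125a-5p and miR-125b-5p are identical over their first 13 bases. miR-10a-5p and miR-99a-5p have different seeds but share a run of 10 bases, at positions 7 to 16 of miR-10a-5p and 6 to 15 of miR-99a-5p. The near-identity affects the counts: in the deposited precursor table, values of miR-10a-5p and miR-10b-5p were fractional in the same 7 libraries, and those of miR-99a-5p and miR-100-5p in the same 9. Levels of these pairs may thus hold reads divided between them, whose part was not tested. Values of miR-99b-5p and miR-125a-5p were whole in all 15 libraries.

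The hairpins lie at 8 places of the genome (GRCm38, plus strand, GENCODE M21 annotation). Mir10a (chr11:96317165-96317274) lies outside other annotated genes, and Mir10b (chr2:74726070-74726137) in an intron of Hoxd3 and Hoxd4. Mir99a (chr16:77598936-77599000) and Mir125b-2 (chr16:77646273-77646343) lie in introns of the noncoding gene Mir99ahg, with Mirlet7c-1 between them, and Mir99a also lies opposite an intron of Gm11146. On chromosome 9, Mir100 (chr9:41531425-41531504) and Mir125b-1 (chr9:41581926-41582002) lie in introns of the noncoding genes 3110039I08Rik and Gm49317, with Mirlet7a-2 between them. Mir100 also lies opposite an exon of Gm48742, and Mir125b-1 overlaps an exon of Gm28119 on its own strand. The third cluster is compact, 692 bases from end to end: Mir99b (chr17:17830188-17830257) in an intron of Spaca6, then Mirlet7e, then Mir125a (chr17:17830812-17830879) in annotated exonic sequence of Spaca6. Each cluster holds 1 gene of the miR-99/100 family, 1 of let-7 and 1 of miR-125, and miR-125b-5p is made from 2 of them.

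Library totals ranged from 535473 to 5087728 counts, the lowest and the highest both in the caerulein 100 nM group. The acinar miRNA miR-148a-3p took 50.5% of the counts of control replicate 3, against 17.6% and 18.7% in the other control libraries, so levels are given as CPM, counts relative to the library's total after TMM scaling, whose factors ran from 0.735 to 1.19. miR-148a-3p also took 42.7% in TLC-S 250 uM replicate 3, and 35.4% and 36.4% in caerulein 100 pM replicates 2 and 3. All 6 acinar marker miRNAs were present, with 27.0% to 58.0% of the counts. Lists of miRNAs named for other cell types were also present, none of their miRNAs at 0 in every library. The 5 islet and neuroendocrine miRNAs summed to 5.86% to 14.9% of the counts, and 5 epithelial ones to 6.23% to 12.0%. Acinar cells are themselves epithelial, and such lists are not exclusive to 1 cell type, so these sums do not measure other cells. The 5 stellate and mesenchymal miRNAs summed to 0.854% to 1.97%, and 2 endothelial ones to 0.363% to 0.839%. Leukocyte, erythrocyte and liver or muscle markers reached at most 0.0111%, 0.0187% and 0.0081%. In such bulk libraries, fewer cells of a type and less RNA per cell cannot be told apart.

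Together the 9 members made up 2.21% ± 0.563 of the miRNA counts (SD, n = 15), from 1.48% to 3.38%. Their share was 2.17% ± 0.169 with caerulein 100 nM, 1.77% ± 0.474 with caerulein 100 pM, 2.09% ± 0.441 with TLC-S 250 uM, 2.57% ± 0.622 with TLC-S 62.5 uM and 2.43% ± 0.899 in control acini (SD, n = 3 each). The spread among controls was the widest of the 5 groups, and its lowest library was replicate 3, the one with the largest miR-148a-3p share. The shares were also low in TLC-S 250 uM replicate 3 (1.59%) and in caerulein 100 pM replicates 2 and 3 (1.48% and 1.52%). With the 3 most abundant miRNAs left out of the total, the SD was widest with TLC-S 62.5 uM, 1.00 against 0.777 in control acini. Control replicate 3 then stood at 4.13%, above control replicate 2 at 3.97%. The group means then ran from 3.61% with caerulein 100 pM to 4.57% with TLC-S 62.5 uM. Of the members' own counts, the guides with the miR-99/100 seed held 60.9% ± 6.88, those with the miR-10 seed 35.0% ± 7.12, those with the miR-125 seed 3.99% ± 1.35, and both 3p strands together 0.0552% (SD, n = 15).

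miR-99a-5p was the most abundant member, at 12205 ± 3502 CPM over all libraries (SD, n = 15), rank 17 of the 351 tested. Next came miR-10b-5p at 4120 ± 746 CPM and miR-10a-5p at 3342 ± 653 CPM, ranks 29 and 33. miR-99b-5p followed at 941 ± 135 CPM, then miR-125a-5p at 467 ± 186 CPM, miR-125b-5p at 412 ± 217 CPM and miR-100-5p at 242 ± 48.0 CPM. In that order, the 2 miR-125 guides differed by less than the SD of either, and miR-125b-5p and miR-100-5p by less than the SD of miR-125b-5p but more than that of miR-100-5p. The ranges of the miR-10 guides overlapped, and within a library miR-10b-5p had 0.990 to 1.65 times the count of miR-10a-5p. The 3p strands stood far lower, miR-10a-3p at 7.94 ± 3.20 CPM and miR-125a-3p at 3.78 ± 1.89 CPM, ranks 290 and 335.

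The members differed in how much they varied between libraries. miR-99b-5p was the steadiest, with a coefficient of variation of 14.3%, and miR-10b-5p (18.1%), miR-10a-5p (19.5%) and miR-100-5p (19.9%) came close to it. The median over the 145 tested miRNAs with a mean of at least 100 CPM was 22.8%. Above it stood miR-99a-5p at 28.7%, miR-125a-5p at 39.8% and miR-125b-5p at 52.6%, the most variable guide, whose highest library held 5.03 times the level of its lowest. The miR-99/100 seed came mostly from 1 guide: miR-99a-5p supplied 90.7% ± 2.45 of the counts with its seed, miR-99b-5p 7.43% ± 2.04 and miR-100-5p 1.88% ± 0.472. The other seeds were shared more evenly, with 55.2% ± 2.98 for miR-10b-5p in its pair and 53.8% ± 4.48 for miR-125a-5p in its own (SD, n = 15).

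Both strands of the 8 hairpins could be set side by side. The 5p strand outnumbered the 3p strand in each hairpin for which the strands could be told apart. The ratio of summed counts was 451 for miR-10a, 114 for miR-125a, 1481 for miR-99a, 43.3 for miR-99b and 2204 for miR-10b. No count of miR-100-3p was seen among 30641589 counts in all, which allows up to 0.0979 CPM (3 counts, counting error only). The 3p strands also separate the hairpins that give the same miR-125b-5p: miR-125b-2-3p, from the chromosome 16 cluster, had 1838 counts, against 36 of miR-125b-1-3p from chromosome 9, a ratio of 51.1. In the 11 libraries with a count of miR-125b-1-3p, at most 6 in any, the ratio ran from 18.3 to 87.5. The other 4 libraries had none. The miR-99/100 guides of the same clusters had a like ratio, 367333 counts of miR-99a-5p against 7486 of miR-100-5p, or 49.1 (34.4 to 81.8 in single libraries). The deposited table of precursors divides miR-125b-5p almost evenly between its hairpins, with 6378 counts for mir-125b-2 and 6522 for mir-125b-1. Both hairpins give the same 22 bases, so this division does not measure how much came from each.

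**Figure D1:**
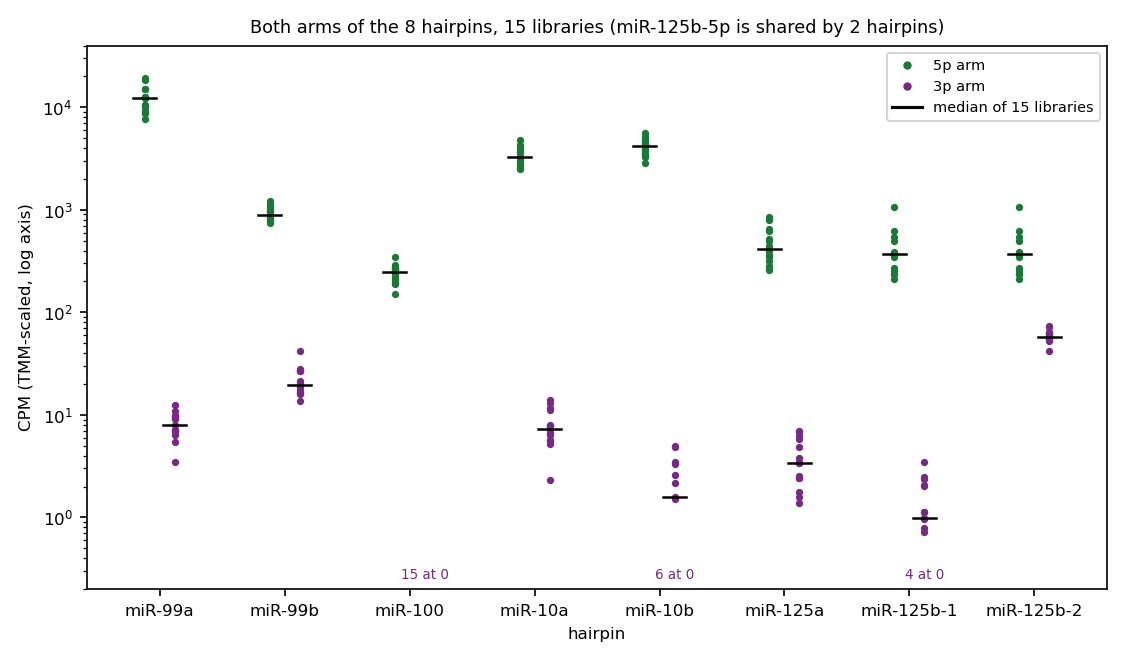
Level of the 5p strand (green) and 3p strand (purple) of 8 hairpins, as TMM-scaled CPM on a log axis. Each point is 1 of 15 libraries, the bar is their median, and libraries at 0 are counted at the foot. The 5p points lie above the 3p points in every hairpin, miR-100-3p is at 0 in all 15 libraries, and the miR-125b-5p points are drawn for both hairpins that make it.

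No member passed the test in any comparison. edgeR's quasi-likelihood test with Benjamini-Hochberg adjustment over all 351 miRNAs called 0 of 9 members in each of 7 comparisons of group pairs and in an F test over the 5 groups, and DESeq2 and limma also called 0 of 9. At an unadjusted p under 0.05, 0 of 9 members passed in every one of these edgeR tests. In the F test, 0.855% of all tested miRNAs passed after adjustment and 7.41% before it. The 95% intervals of all 63 member differences held 0. For the 7 guides the intervals still set limits: 40 of 49 lay wholly between -1 and 1 on the log2 scale, so a change beyond doubling or halving lies outside them. Neither 3p strand had an interval that narrow in any comparison. The 4 comparisons with control share its 3 libraries, and their values are given side by side for that reason.

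**Figure D2:**
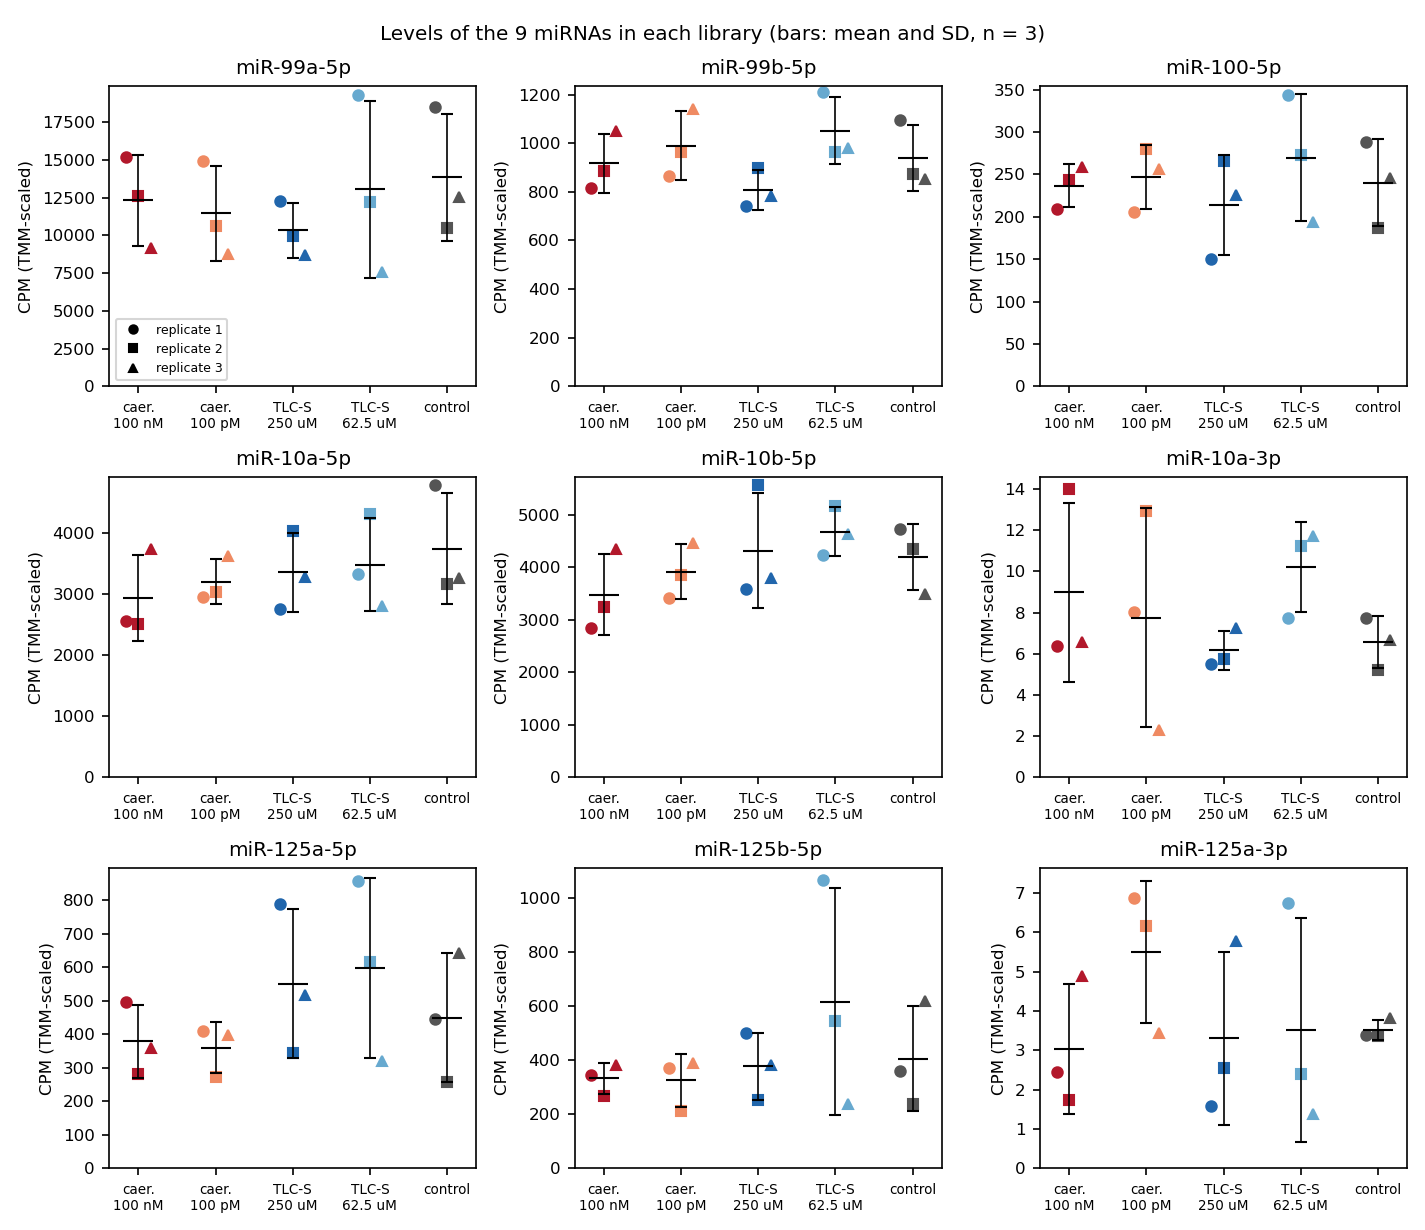
Level of each of the 9 members in each library, as TMM-scaled CPM on linear axes that start at 0. Symbols are single libraries (replicate 1, 2 or 3) and bars give the mean and SD of 3 libraries. The groups overlap for most members, and TLC-S 62.5 uM replicate 1 is the highest of all libraries for miR-99a-5p, miR-99b-5p, miR-100-5p, miR-125a-5p and miR-125b-5p.

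miR-99a-5p, the member with most counts, had 15211, 12613 and 9187 CPM with caerulein 100 nM and 14942, 10632 and 8804 CPM with caerulein 100 pM in replicates 1, 2 and 3. With TLC-S 250 uM it had 12305, 9982 and 8705 CPM, with TLC-S 62.5 uM 19302, 12245 and 7601 CPM, and in control acini 18528, 10466 and 12546 CPM. All groups overlapped, and the highest library was replicate 1 in each of the 5 groups. TLC-S 250 uM had the lowest mean, 10331 ± 1825 CPM against 13847 ± 4185 CPM in control acini (SD, n = 3 each), a log2 difference of -0.42 (SE 0.30, edgeR adjusted p = 0.999).

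Its relatives with the same seed varied less. miR-99b-5p had 817, 885 and 1052 CPM with caerulein 100 nM, 864, 963 and 1142 CPM with caerulein 100 pM, 742, 899 and 783 CPM with TLC-S 250 uM, 1211, 963 and 981 CPM with TLC-S 62.5 uM, and 1094, 874 and 851 CPM in control acini. Each treated group overlapped with the controls. miR-100-5p had 209, 243 and 258 CPM with caerulein 100 nM, 206, 279 and 256 CPM with caerulein 100 pM, 150, 266 and 226 CPM with TLC-S 250 uM, 343, 273 and 194 CPM with TLC-S 62.5 uM, and 288, 187 and 246 CPM in control acini. The lowest and the highest miR-100-5p libraries were both replicate 1 of a TLC-S group.

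The miR-10 guides stood close to each other in every library. miR-10a-5p had 2555, 2505 and 3741 CPM with caerulein 100 nM, 2945, 3032 and 3626 CPM with caerulein 100 pM, 2749, 4035 and 3278 CPM with TLC-S 250 uM, 3332, 4302 and 2808 CPM with TLC-S 62.5 uM, and 4785, 3169 and 3265 CPM in control acini. miR-10b-5p had 2854, 3247 and 4348 CPM with caerulein 100 nM, 3426, 3861 and 4472 CPM with caerulein 100 pM, 3580, 5579 and 3800 CPM with TLC-S 250 uM, 4232, 5160 and 4640 CPM with TLC-S 62.5 uM, and 4738, 4355 and 3501 CPM in control acini. For both, 2 of the 3 caerulein 100 nM libraries lay below every control library and the other did not.

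The miR-125 guides had the widest spread. miR-125a-5p had 497, 282 and 359 CPM with caerulein 100 nM, 411, 272 and 396 CPM with caerulein 100 pM, 787, 345 and 518 CPM with TLC-S 250 uM, 856, 614 and 319 CPM with TLC-S 62.5 uM, and 446, 257 and 643 CPM in control acini. miR-125b-5p had 347, 269 and 383 CPM with caerulein 100 nM, 372, 212 and 391 CPM with caerulein 100 pM, 501, 252 and 381 CPM with TLC-S 250 uM, 1068, 546 and 236 CPM with TLC-S 62.5 uM, and 359, 239 and 619 CPM in control acini. One library, TLC-S 62.5 uM replicate 1, stood above all others for both guides, while replicate 3 of the same group was below 2 of the 3 controls for miR-125a-5p and below all 3 for miR-125b-5p. Of the 3p strands, miR-10a-3p ranged from 2.30 to 13.997 CPM (2 to 35 counts) and miR-125a-3p from 1.38 to 6.89 CPM (1 to 26 counts), so their differences rest on few reads.

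With caerulein 100 nM, 8 of 9 members averaged lower than in control acini and none passed the test. The 8 were 5 when scaled by library totals or by the upper quartile, 5 without caerulein 100 nM replicate 1 or without control replicate 1, and 4 without control replicate 3. Of the members, 0 of 9 were called (0% of the 351 tested), 0 of 9 had an unadjusted p under 0.05 (3.42%), and 0 of 9 had groups that did not overlap (6.55%). The members' median log2 difference was -0.17, beside a median of 0.03 over all miRNAs tested, 52.7% of which were above 0. Of the guides, miR-10a-5p was farthest from 0. miR-10a-5p averaged 2934 ± 699 CPM with caerulein 100 nM and 3740 ± 906 CPM in control acini (SD, n = 3 each), a log2 difference of -0.35 (SE 0.25, 95% interval -0.86 to 0.16, edgeR adjusted p = 0.984). For miR-125b-5p it was -0.28 (SE 0.40), and for miR-10b-5p -0.27 (SE 0.23, 95% interval -0.75 to 0.21). miR-99b-5p, at -0.03, and miR-100-5p, at -0.02, differed least among the guides.

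With caerulein 100 pM the members fell on both sides of the controls. Of them, 0 of 9 were called (0% of all tested), 0 of 9 had an unadjusted p under 0.05 (6.84%), and 0 of 9 had groups that did not overlap (10.3%). The median log2 difference was -0.10 with 4 of 9 above 0, beside 0.01 over all miRNAs tested. The 4 were 7 without control replicate 1, 6 without control replicate 3, and 2 without caerulein 100 pM replicate 2 or with scaling by library totals. miR-125a-5p and miR-125b-5p had log2 differences of -0.32 each (SE 0.35 and 0.40), and miR-99a-5p of -0.27 (SE 0.30). The value farthest from 0 was that of miR-125a-3p, the opposite strand of miR-125a-5p, at 0.68 with an SE of 0.69, from 3 to 12 counts per treated library and 7 to 9 per control library.

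TLC-S 250 uM gave the same count of 0 of 9 called (0% of all tested), with 0 of 9 at an unadjusted p under 0.05 (1.14%) and 0 of 9 without overlap (7.12%). The median log2 difference from control was -0.10 with 3 of 9 above 0, beside -0.03 over all miRNAs tested. Without TLC-S 250 uM replicate 1, or without control replicate 1, 6 of 9 were above 0. The miR-125 guides were on different sides of 0, miR-125a-5p at 0.29 (SE 0.35) and miR-125b-5p at -0.10 (SE 0.40), as were miR-10b-5p at 0.04 and miR-10a-5p at -0.16. The 3 guides of the miR-99/100 seed were at -0.42 for miR-99a-5p, -0.22 for miR-99b-5p and -0.16 for miR-100-5p, each with an interval that held 0.

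With TLC-S 62.5 uM, 7 of 9 members had a log2 difference above 0 and none passed the test. That count was 6 with the 3 most abundant miRNAs left out and 9 without control replicate 1, and without TLC-S 62.5 uM replicate 1 it was 4 of the 8 members then tested. Of the members, 0 of 9 were called, while 0.57% of all tested miRNAs were, 0 of 9 had an unadjusted p under 0.05 (7.41%), and 0 of 9 had groups that did not overlap (12.3%). The median log2 difference was 0.16, beside -0.01 over all miRNAs tested. miR-125b-5p was farthest from 0 among the guides, at 617 ± 420 CPM with TLC-S 62.5 uM and 405 ± 194 CPM in control acini (SD, n = 3 each), a log2 difference of 0.61 (SE 0.39, 95% interval -0.20 to 1.42, edgeR adjusted p = 0.821). This value moved with single libraries: it was -0.04 without TLC-S 62.5 uM replicate 1, 0.93 without TLC-S 62.5 uM replicate 3, 0.32 without control replicate 2 and 1.07 without control replicate 3. With 1 replicate number left out of all 5 groups at once, it ran from -0.15 (replicate 1) to 1.40 (replicate 3, edgeR adjusted p = 0.110). miR-125a-5p had a log2 difference of 0.41 (SE 0.35) and miR-10a-3p of 0.64 (SE 0.53).

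Between the caerulein doses, 100 nM over 100 pM, no member passed the test. Of them, 0 of 9 were called (0% of all tested), 0 of 9 had an unadjusted p under 0.05 (1.71%), and 0 of 9 had groups that did not overlap (5.7%). The median log2 difference was -0.06, and the 7 guides ran from -0.17 for miR-10b-5p to 0.11 for miR-99a-5p. The 3p strands were at -0.02 for miR-10a-3p and -0.69 for miR-125a-3p (SE 0.71, from 1 to 26 counts per library with caerulein 100 nM and 3 to 12 with caerulein 100 pM). Between the agents at their higher doses, caerulein 100 nM over TLC-S 250 uM, 0 of 9 were called (0% of all tested), 0 of 9 had an unadjusted p under 0.05 (2.28%) and 0 of 9 had no overlap (5.41%). The median was -0.02. miR-125a-5p, at 379 ± 109 CPM with caerulein 100 nM and 550 ± 222 CPM with TLC-S 250 uM (SD, n = 3 each), was farthest from 0, with a log2 difference of -0.53 (SE 0.35, 95% interval -1.26 to 0.20).

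Between the TLC-S doses, 250 uM over 62.5 uM, all 9 members had a log2 difference below 0, with a median of -0.33 beside 0.01 over all miRNAs tested. The 9 became 8 with RLE or upper-quartile scaling, 7 with the 3 most abundant miRNAs left out, 6 without TLC-S 250 uM replicate 1, and 6 of the 8 members then tested without TLC-S 62.5 uM replicate 1. Of the members, 0 of 9 were called, while 1.14% of all tested miRNAs were, and 0 of 9 had an unadjusted p under 0.05 (8.83%). The groups did not overlap for 2 of 9, against 12% of all tested miRNAs, which is not read as a result about the members. These were miR-99b-5p, at 808 ± 81.3 CPM with TLC-S 250 uM and 1052 ± 139 CPM with TLC-S 62.5 uM, a log2 difference of -0.38 (SE 0.23, 95% interval -0.85 to 0.08), and miR-10a-3p, at 6.16 ± 0.942 CPM with TLC-S 250 uM and 10.2 ± 2.18 CPM with TLC-S 62.5 uM. The smallest unadjusted p of all member differences belonged to miR-125b-5p, at 378 ± 124.5 CPM with TLC-S 250 uM and 617 ± 420 CPM with TLC-S 62.5 uM (SD, n = 3 each). Its log2 difference was -0.71 (SE 0.40, 95% interval -1.52 to 0.10, edgeR unadjusted p = 0.0861, adjusted p = 0.756). Without TLC-S 62.5 uM replicate 1 it was -0.05.

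**Figure D3:**
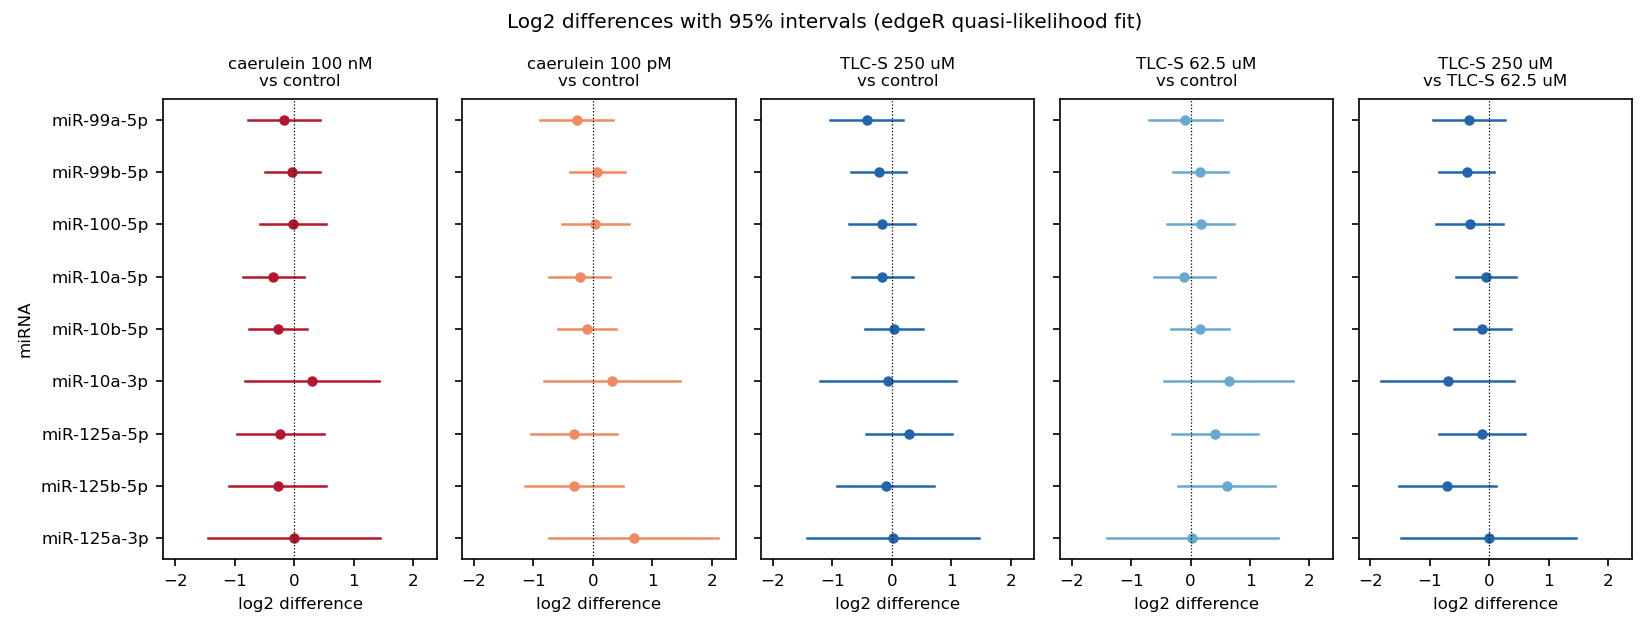
Log2 difference of each member with its 95% interval in the edgeR quasi-likelihood fit, for the 4 treated groups over control and for TLC-S 250 uM over TLC-S 62.5 uM. The dotted line marks no difference. Every interval crosses it, all 9 points of the last panel lie on its left, and the 3p strands have the widest intervals.

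The strands and genes that share a source were tested in the same way. Of the 6 other strands of these hairpins, 3 passed the filter: miR-99a-3p at 8.21 CPM, miR-99b-3p at 22.0 CPM and miR-125b-2-3p at 59.5 CPM on average. Of the let-7 strands encoded in the same clusters, 4 of 6 passed it: let-7c-5p at 5959 CPM, let-7a-5p at 2731 CPM, let-7e-5p at 293 CPM and let-7e-3p at 7.11 CPM. The let-7 guides are regulators of cell growth and differentiation, and the let-7a-5p level also holds RNA from its other genes. In edgeR's test, 0 of these 7 passed in any of the 7 comparisons. miR-125b-2-3p varied little, with a coefficient of variation of 13.1%, while miR-125b-5p, partly from the same hairpin, had 52.6%.

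Ratios within a library do not depend on the scaling between libraries. For 6 ratios in 4 treated groups against control, 24 exact two-sided permutation tests of log2 ratios were run, in which 3 against 3 libraries cannot give a p under 0.1. None passed, and the lowest adjusted p of the exact tests was 0.9. The groups did not overlap in 2 of the 24. Groups of 3 that do not overlap give the smallest p of 0.1, which some of 24 tests can reach without a difference. The 2 are not read as results about these ratios. The ratio of miR-125b-5p over miR-125a-5p was -0.52 ± 0.117 on the log2 scale with TLC-S 250 uM and -0.16 ± 0.138 in control acini (SD, n = 3 each), a difference of -0.36 (exact permutation p = 0.1). The ratio of miR-10a-3p over miR-10a-5p was -8.37 ± 0.450 with TLC-S 62.5 uM and -9.10 ± 0.190 in control acini, a difference of 0.72 (exact permutation p = 0.1, n = 3 each). It rests on 16 to 28 counts of miR-10a-3p per treated library and 14 to 16 per control library. miR-10b-5p over miR-10a-5p was 0.25 on the log2 scale with caerulein 100 nM, 0.29 with caerulein 100 pM, 0.35 with TLC-S 250 uM, 0.44 with TLC-S 62.5 uM and 0.18 ± 0.247 in control acini (exact permutation p from 0.3 to 0.7, n = 3 each).

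The miR-125 guides varied together across the 15 libraries, as did the miR-10 guides. Pearson's r of log2 CPM and Spearman's rho were computed for 12 chosen pairs that share a hairpin, a cluster or a seed, with permutation p-values adjusted over the 12. miR-125a-5p and miR-125b-5p, on different chromosomes, had r = 0.91 and rho = 0.86 (adjusted permutation p = 0.00012 for r, n = 15). The unadjusted p of 1e-05 is the smallest that the resamples can give. That p permutes all 15 libraries freely. With the 2 libraries farthest from the median of miR-125a-5p left out, r was 0.91. With group means removed it was 0.93 (adjusted p = 0.00636, permutation within groups). With replicate number means removed, an alternative chosen after seeing the data, it was 0.88 (adjusted p = 0.00288, permutation within numbers). Without TLC-S 62.5 uM replicate 1, left out after its value was seen, r was 0.90. miR-10a-5p and miR-10b-5p, also on different chromosomes, had r = 0.79 and rho = 0.77 (adjusted permutation p = 0.0033, n = 15), with r = 0.77 without the 2 farthest libraries. With group means removed r was 0.80 (adjusted p = 0.0166, permutation within groups). With replicate number means removed it was 0.81 (adjusted p = 0.0152, permutation within numbers). The reads that may be divided between the miR-10 guides, and the shared scaling, can enter these values, and their part was not tested.

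The pairs of miR-99a-5p with its relatives of the same seed did not pass the threshold. miR-99a-5p and miR-100-5p had r = 0.31 and rho = 0.27, and miR-99a-5p and miR-99b-5p r = 0.15 and rho = -0.02 (adjusted permutation p = 0.444 and 0.762 for r, n = 15). With the mean of each replicate number removed, an alternative chosen after seeing the data, the first of these was r = 0.69 (adjusted permutation p = 0.0418). For miR-99a-5p and miR-100-5p r was -0.05 without the 2 farthest libraries and 0.27 with group means removed. Without TLC-S 62.5 uM replicate 1, left out after its value was seen, r was 0.09. The other pair of that seed, miR-99b-5p and miR-100-5p on chromosomes 17 and 9, was not among the 12 and has no p, but its r of 0.74 was near that of the miR-10 guides.

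Not all pairs of neighbours in a cluster passed the threshold, which at n = 15 does not show that the others are unrelated. miR-99b-5p and miR-125a-5p, whose hairpins lie within 692 bases, had r = -0.04 and rho = -0.18 (adjusted permutation p = 0.884, n = 15), and miR-99b-5p and let-7e-5p r = 0.13 and rho = 0.03 (adjusted permutation p = 0.762). Without the 2 farthest libraries r was -0.43 for the first pair and -0.28 for the second. miR-125a-5p and let-7e-5p, of the same cluster, had r = 0.52 and rho = 0.53 (adjusted permutation p = 0.107), with r = 0.80 with group means removed (adjusted permutation p = 0.0245) and 0.41 with replicate number means removed (adjusted permutation p = 0.285). miR-99a-5p and let-7c-5p of the chromosome 16 cluster had r = 0.68 and rho = 0.65 (adjusted permutation p = 0.0204, n = 15). Their r was 0.54 without the 2 farthest libraries, 0.85 with group means removed, and 0.46 with replicate number means removed (adjusted permutation p = 0.192). miR-99a-5p and miR-125b-5p, which share that cluster in part, had r = 0.52 and rho = 0.29, and r was 0.17 without the 2 farthest libraries, both of the TLC-S 62.5 uM group. miR-100-5p and miR-125b-5p had r = 0.31 and rho = 0.22. For the strands of 1 hairpin r was -0.21 for miR-10a and 0.09 for miR-125a (adjusted permutation p = 0.669 and 0.818), which does not show that they are unrelated, since the 3p counts are few.

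**Figure D4:**
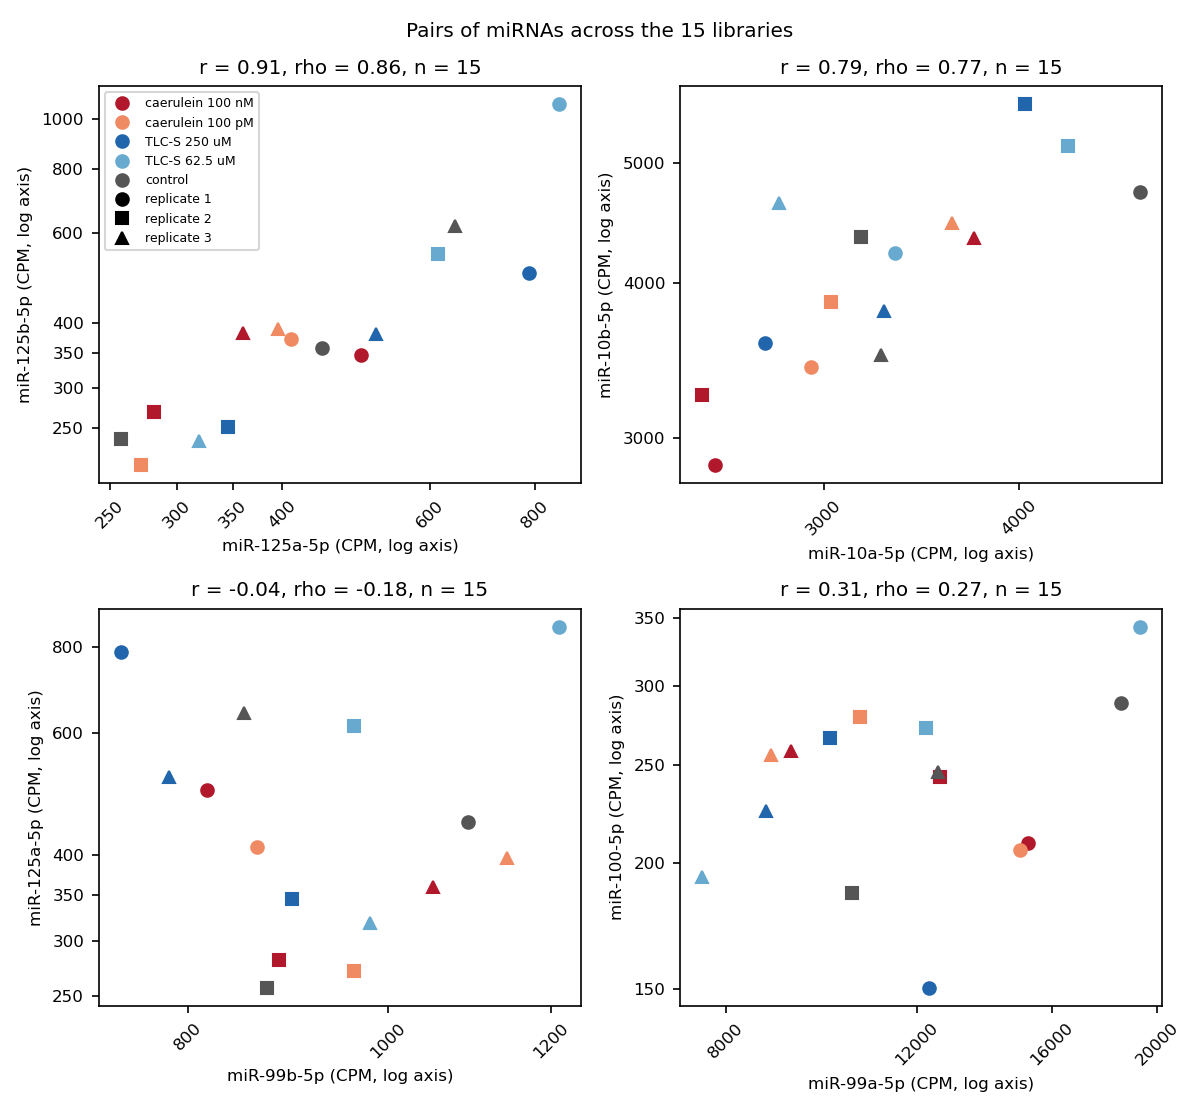
Levels of 4 pairs of guides across the 15 libraries, as TMM-scaled CPM on log axes. Colours are groups and symbols are replicates. The upper panels show pairs that share a seed on different chromosomes, miR-125a-5p with miR-125b-5p (r = 0.91) and miR-10a-5p with miR-10b-5p (r = 0.79). The lower panels show miR-99b-5p with its cluster neighbour miR-125a-5p (r = -0.04) and miR-99a-5p with miR-100-5p of the same seed (r = 0.31).

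Among the 350 other tested miRNAs, the closest pattern to each member was read from Pearson's r over the 15 libraries, as a description in which all points share their libraries and scaling. The likest to miR-10a-5p was miR-10b-5p (r = 0.79), followed by miR-455-5p (0.72). miR-10b-5p had miR-10a-5p first, then miR-143-3p (0.76), one of the 5 stellate and mesenchymal markers, and miR-136-3p (0.74). The other markers of that list were not among its 3 likest miRNAs, and their r is not given here. The sum of those 5 markers ran from 8672 to 14425 CPM with caerulein 100 nM, 9380 to 14816 with caerulein 100 pM, 7891 to 17298 with TLC-S 250 uM, 10971 to 14534 with TLC-S 62.5 uM and 11858 to 12524 in control acini, and the part of such cells in the miR-10b-5p level was not tested. miR-125a-5p was closest to let-7c-5p and miR-125b-5p (0.91 each), and miR-125b-5p to miR-125a-5p (0.91), miR-181a-5p (0.90) and miR-191-5p (0.86). For miR-99a-5p the likest were miR-224-5p (0.83), miR-361-3p (0.82) and miR-128-3p (0.81), none of them a member. miR-99b-5p was likest to miR-101b-3p (0.85) and miR-101a-3p (0.79), and miR-100-5p to miR-676-5p (0.82) and miR-200a-5p (0.76). The 3p strands had lower values, at most 0.69 for miR-10a-3p (with miR-5128) and 0.70 for miR-125a-3p (with miR-3105-3p).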

How the data were processed

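Per the labels' protocols, total RNA came from a mirVana kit and was sequenced on an Illumina machine. The submitters' processing notes name cutadapt and Bowtie and the builds GRCm38 and mm10; neither tool's version nor the program that counted reads is stated there. The mature miRNA table the authors deposited holds estimated counts (expected counts), already whole numbers, each within 0.5 of the sum over precursors in a second deposited table of estimated counts, of whose member values 65.3% were whole within 1e-06.

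Groups came from sample titles; replicate numbers 1 to 3 follow accession order. All 15 libraries (535473 to 5087728 counts) entered 1 edgeR 4.0.16 fit (R 4.3.3) of 5 group means. It used glmQLFit and glmQLFTest after TMM scaling and filterByExpr (minimum count setting 10, minimum total setting 15). Single libraries could hold fewer counts, as for miR-125a-3p with 1 to 26. The fit had 10 residual degrees of freedom, Benjamini-Hochberg adjustment over 351 miRNAs and a threshold of 0.05. The fit was tested on data simulated from its own dispersions, which held no effect shared by libraries of 1 replicate number. SEs are Wald SEs. Ratios added 0.5 to each count. Correlations used 100000 resamples (SciPy 1.17.1). Alternatives used DESeq2 1.42.0 and limma 3.58.1. Named miRNAs are the 9 members, the other strands of their hairpins, the let-7 strands of their clusters and, per member, the 3 miRNAs with the highest r, of which some are given. Members, lists and tests were chosen with earlier results of these data known.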

Additional observations from a re-analysis of the deposited data

How the results depend on the processing

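Other scalings, filters, tools and left-out libraries, 31 settings in all and 18 of them leaving out libraries, gave 1925 values of single member differences. None passed the adjusted threshold, the lowest adjusted p being 0.110, and every count of members called was 0. Signs were not stable: 47 of 63 differences changed sign in some setting, 170 values in all, 12 of them for a difference of at least 0.3. An unadjusted p under 0.05 occurred in 14 values, 9 of them of miR-125b-5p and the others of miR-10a-5p, miR-10b-5p and miR-125a-5p. Scaling by library totals moved the median log2 difference of all miRNAs by -0.24 for caerulein 100 pM over control, by 0.10 for TLC-S 62.5 uM over control and by 0.29 for caerulein 100 nM over caerulein 100 pM. The members' summed share was 4.11% with the 3 most abundant miRNAs left out of the total. With a mean of at least 10 CPM required, both 3p strands were not tested.

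With a replicate block, 0 members were called in every comparison, and all miRNAs called numbered 5 rather than 2 for TLC-S 62.5 uM over control and 6 rather than 3 in the F test. The codes in the sample titles run in sets that hold each group once, which the replicate numbers follow, but no label says what the sets are. Same-numbered libraries deviated together in part (r from -0.12 to 0.40, 15 of 30 pairs over 0.1, and 11 of 15 libraries closest to one of their own number). Whether they share a preparation was not tested, and the main fit did not use the numbers as pairs.

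The low totals of some libraries limit the 3p strands most, with as few as 1 count in a library.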

Other observations

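The highest miR-99a-5p library was replicate 1 in each of the 5 groups, a number the labels do not tie to a batch, though the ranges overlap. Replicate 1 of the 5 groups had 12305 to 19302 CPM, replicate 2 had 9982 to 12613 CPM and replicate 3 had 7601 to 12546 CPM. For miR-125a-5p, replicate 1 had 411 to 856 CPM, replicate 2 had 257 to 614 CPM and replicate 3 had 319 to 643 CPM. For miR-10a-5p the ranges were 2555 to 4785 CPM, 2505 to 4302 CPM and 2808 to 3741 CPM.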
